A study of Homo sapiens with 6 samples.

Results

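The APOBEC3 cytidine deaminases were followed across 6 RNA-Seq libraries of DU145, a prostate cancer cell line taken from a brain metastasis, and 769-P, a renal cell adenocarcinoma line. Each line gave 3 libraries, from cells that had received a control siRNA (NC), SPOP siRNA 1 or SPOP siRNA 2, and the time after transfection is not given for these libraries. SPOP is the substrate adaptor of a CUL3 ubiquitin ligase, and the study asked how its loss alters gene expression in the 2 cancers. The 2 siRNA libraries of a line were taken as its replicates (n = 2), each control is a single library, and no label says whether the cultures were separate.

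The members were chosen by symbol, as rows whose name or any part of it starts with APOBEC3, with their FPKM and their changes with the siRNAs already known, so those values are given as a description and carry no test. The prefix matched 7 of 24551 genes. Of these, 6 are deaminase rows and are described as the members. The other is APOBEC3B-AS1, a noncoding antisense gene given beside them. The members are the joined row APOBEC3A,APOBEC3A_B,APOBEC3B, in which the deposited files hold a single value for all 3 symbols, and APOBEC3C, APOBEC3D, APOBEC3F, APOBEC3G and APOBEC3H. FPKM counts sequenced fragments relative to transcript length and to the size of the library. Averaged across the libraries, 2 of the 6 members reached 1 FPKM, the joined row with 16.0 and APOBEC3C with 15.4.

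APOBEC3 enzymes turn cytosine into uracil in single-stranded DNA. They restrict retroviruses, endogenous retroelements and some DNA viruses, and several of them are induced by interferon. In tumors APOBEC3A and APOBEC3B are held to be sources of clustered and scattered C-to-T and C-to-G mutations, and APOBEC3B is controlled in part by NF-kB, TEAD and DREAM factors. APOBEC3A_B is the hybrid gene of an allele in which a deletion joins the coding part of APOBEC3A to the end of APOBEC3B.

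The genes lie side by side on the plus strand of chromosome 22, between 39348746 and 39500072 in GRCh37 (hg19, the build named by the study), a stretch of 151327 bp. From the centromere side the order is APOBEC3A (39348746 to 39359189), APOBEC3B (39378352 to 39388809), APOBEC3C (39410262 to 39416357), APOBEC3D (39417118 to 39429282), APOBEC3F (39436609 to 39451977), APOBEC3G (39473072 to 39483748) and APOBEC3H (39493229 to 39500072). APOBEC3B-AS1, on the minus strand, overlaps the last 1246 bp of APOBEC3B. The labels do not say that the strand was kept, so fragments in this overlap cannot be told apart.

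The members are close copies, which bears on how reads were shared among their rows. In the GENCODE transcripts, 12.6% of the windows of 100 bases in APOBEC3A (the length of a read) are found letter for letter in APOBEC3B, within the same joined row. Of the windows of APOBEC3B, 7.56% occur unchanged in a gene of another row, mostly APOBEC3D with 5.73%. Within 2 mismatches, the limit used in mapping, this share is 15.1%, and APOBEC3F (8.77%) comes before APOBEC3D (6.36%). For APOBEC3D, APOBEC3F and APOBEC3G the unchanged shares are 9.23%, 5.96% and 7.30%. Within 2 mismatches they are 15.7%, 12.8% and 15.9%, so the low values of these members are less certain. APOBEC3C and APOBEC3H have 0% of windows in common with another member, and within 2 mismatches APOBEC3C has 2.12% and APOBEC3H 0%. So no window of APOBEC3C was identical to one in the joined genes.

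Of the 8 member symbols 1, APOBEC3H, is in the RefSeq promoter table (GRCh38.p14, plus strand, chr22:39096994-39097293). Its promoter is printed for that reason alone. It spans the annotated start, and the capitals mark GAAAC, the end of the interferon-stimulated response element, which begins 32 bases after the start.
APOBEC3H: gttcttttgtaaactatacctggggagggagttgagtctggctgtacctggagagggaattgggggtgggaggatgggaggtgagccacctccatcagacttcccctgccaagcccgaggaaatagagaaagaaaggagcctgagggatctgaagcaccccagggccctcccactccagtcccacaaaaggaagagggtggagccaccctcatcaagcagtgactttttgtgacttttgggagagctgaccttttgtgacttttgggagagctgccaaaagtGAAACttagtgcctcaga
Both strands were searched. GAAAC is common, being present in 43.1% of 35116 promoters of this length. The core of that element, GAAANNGAAA, which overlaps GAAAC where its last letters are followed by C, and the TEAD core CATTCC have no match in this window and are present in 3.57% and 14.0% of promoters. The NF-kB frame GGGNNNNNCC has 4 matches, 2 on each strand, and is present in 58.7% of promoters.

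Some facts on the libraries come before the values. SPOP itself had 16.1 FPKM in the DU145 control, of which 17.2% and 18.4% was left with siRNA 1 and siRNA 2, and 11.6 FPKM in the 769-P control, of which 13.2% and 12.0% was left. Relative to the 769-P control, depth as read from the steps of low FPKM values ranged from 0.679 in DU145 siRNA 2 to 1.41 in 769-P siRNA 2, and absolute depth is unknown. A low signal at genes that these cells should not use was seen in 2 libraries: of 387 olfactory receptor genes 303 were above 0 in the DU145 control (mean 0.347 FPKM) and 252 in the 769-P siRNA 2 library (mean 0.228 FPKM), against 4 to 6 in each of the others. The renal factor PAX8 had 106 to 125 FPKM in 769-P and at most 1.47 in DU145, whereas CA9 was listed at 0 in 769-P. The epithelial keratin KRT8 had 472 to 586 FPKM in DU145, but the prostate marker KLK3 reached at most 0.312 FPKM there. Of 10 markers of blood and lymphoid cells, in which APOBEC3 genes are abundant, CD3D was listed at 0 in all 6 libraries and PTPRC reached at most 0.0347 FPKM, while the myeloid markers were not all absent. CD14 had 0.224 to 1.59 FPKM in DU145 and 0.156 to 0.291 in 769-P, and ITGAM had at most 0.279 FPKM in DU145 and 0.657 to 1.29 in 769-P. The part of such cells in the APOBEC3 values was not tested. CD68, a lysosomal protein not limited to blood cells, made up most of the summed level of that list, which was 22.8 to 38.9 FPKM in DU145 and 55.7 to 76.6 FPKM in 769-P.

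The joined row of APOBEC3A, APOBEC3A_B and APOBEC3B was lower with both SPOP siRNAs in both lines. The DU145 control had 13.6 FPKM, against 8.70 with siRNA 1 and 6.78 with siRNA 2, a mean of 7.74 ± 1.36 (SD, n = 2 siRNAs). The 769-P control had 33.0 FPKM, against 16.2 with siRNA 1 and 17.7 with siRNA 2, a mean of 16.9 ± 1.05 (SD, n = 2). The control was the highest library of its line in both cases, and no siRNA library overlapped it. The siRNAs left 63.8% and 49.7% of the control level in DU145, and 49.0% and 53.6% in 769-P.

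On the log2(FPKM + 1) scale, which understates the changes of low genes, the joined row differed from the control by -0.59 and -0.91 in DU145 and by -0.98 and -0.86 in 769-P. A gene was called when both siRNAs of a line passed 1.5-fold in the same direction on this scale. By this criterion 1 of the 6 members, the joined row, was called lower in DU145, where 1.19% of the 11865 genes that averaged 1 FPKM or more were called lower. In 769-P the same member was called lower, beside 3.73% of genes. The sets are unlike, since only 2 of the 6 members, the joined row and APOBEC3C, averaged 1 FPKM or more. With DU145 controls of 0.433 and 0.366 FPKM, APOBEC3G and APOBEC3H could not fall 1.5-fold on this scale. With all 4 siRNA libraries together, 0.27% of genes were called lower in both lines. Of all genes tested, 1.40% had a mean difference below that of the joined row in DU145 and 1.45% in 769-P. In DU145 siRNA 1 lay close to the threshold. With the mean of the olfactory receptor genes subtracted from each library it was -0.56 and the call in DU145 was lost. In 769-P the difference was -0.98 with siRNA 1 alone, without the library that had the low signal.

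APOBEC3C, a single-domain deaminase found in many tissues, had the opposite direction in the same libraries. It had 15.7 FPKM in the DU145 control, 25.6 with siRNA 1 and 21.2 with siRNA 2, a mean of 23.4 ± 3.15 (SD, n = 2). The 769-P control had 7.61 FPKM, against 10.0 with siRNA 1 and 12.5 with siRNA 2, a mean of 11.2 ± 1.72 (SD, n = 2). The control was the lowest library of its line in both cases. The siRNA libraries had 163% and 135% of the control level in DU145, and 132% and 164% in 769-P.

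The log2 differences of APOBEC3C were 0.67 and 0.41 in DU145 and 0.36 and 0.65 in 769-P. Only siRNA 1 in DU145 and siRNA 2 in 769-P passed 1.5-fold, so it was not called in either line. No member was called higher, where 4.72% of all genes tested were called higher in DU145 and 3.6% in 769-P. Taking the sign alone, 20.1% of genes were higher with all 4 siRNA libraries, as APOBEC3C was, and 13.6% were lower with all 4, as the joined row was. The mean difference of APOBEC3C was above that of 88.9% of genes in DU145 and 91.0% in 769-P.

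**Figure D1:**
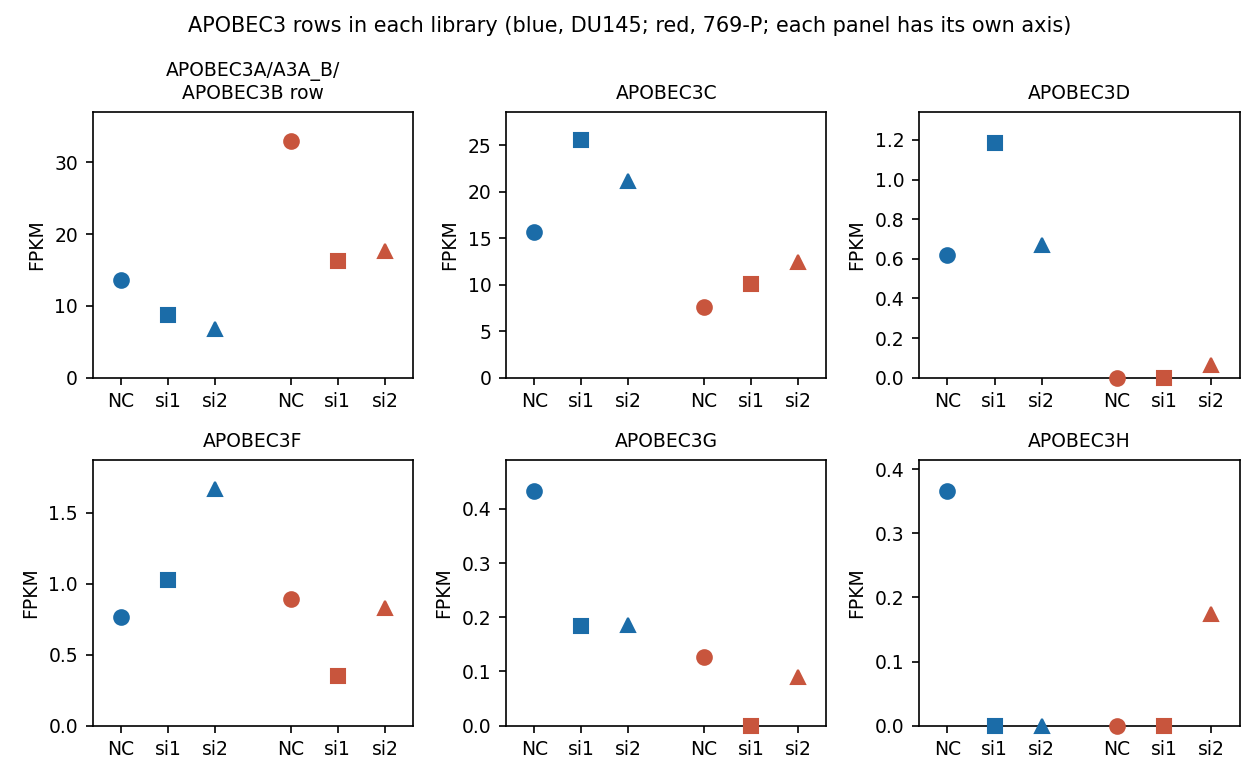
FPKM (y axis, a separate scale for each panel) of the 6 APOBEC3 rows in the control (NC, circle), siRNA 1 (square) and siRNA 2 (triangle) libraries of DU145 (blue) and 769-P (red), each point being 1 library. The joined row is highest in the control of each line, 13.6 and 33.0 FPKM, and APOBEC3C is lowest in the control of each line, 15.7 and 7.61 FPKM.

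The balance between the 2 leading rows differed between control and siRNA libraries in both lines. The joined row made up 43.3% of the summed APOBEC3 FPKM in the DU145 control, and 23.7% and 22.3% with the siRNAs. In 769-P it made up 79.3% in the control, and 60.9% and 56.5% with the siRNAs. These shares are taken within a library, so scaling between libraries does not enter them. The ratio of the joined row to APOBEC3C was 0.870 in the DU145 control and 0.340 and 0.320 with siRNA 1 and siRNA 2. In 769-P the ratio was 4.34 in the control and 1.61 and 1.42 with the siRNAs. The siRNA libraries of a line lay close to each other in this ratio and well away from their control.

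The summed APOBEC3 level did not move in a common direction. It was 31.5 FPKM in the DU145 control, 36.7 with siRNA 1 and 30.5 with siRNA 2, so the control lay between the siRNA libraries. In 769-P it was 41.6 FPKM in the control, 26.6 with siRNA 1 and 31.3 with siRNA 2, both below the control.

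**Figure D2:**
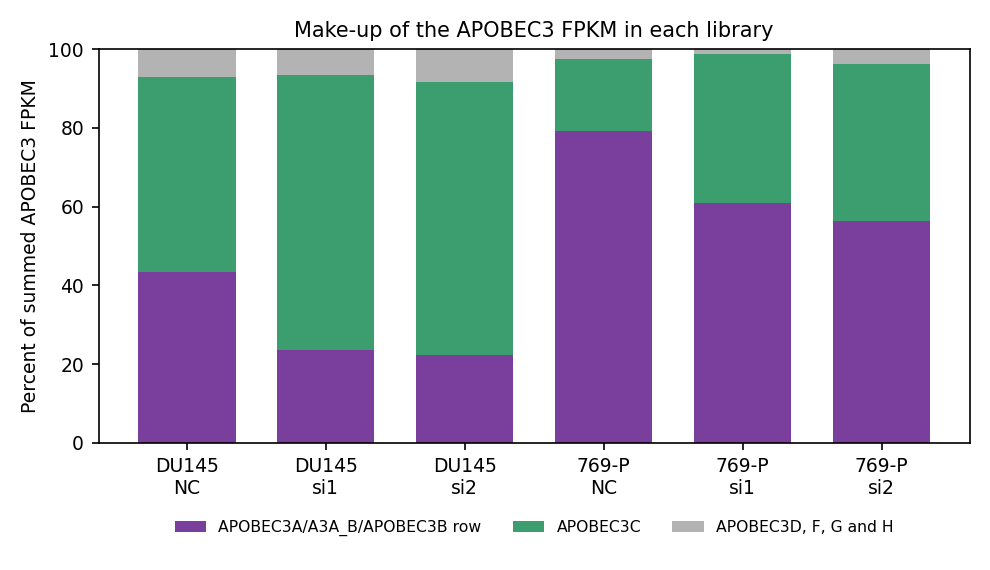
Percent of the summed APOBEC3 FPKM (y axis) taken by the joined row (purple), APOBEC3C (green) and the sum of APOBEC3D, APOBEC3F, APOBEC3G and APOBEC3H (grey) in each of the 6 libraries (x axis). The purple share is smaller in each siRNA library than in the control of its line, 23.7% and 22.3% against 43.3% in DU145 and 60.9% and 56.5% against 79.3% in 769-P.

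The remaining 4 members, which did not pass a mean of 1 FPKM, together held 1.32% to 8.29% of the summed level. APOBEC3F, a double-domain deaminase that acts on retroviral DNA in the cytoplasm, was the highest of them. It had 0.766 FPKM in the DU145 control, 1.03 with siRNA 1 and 1.67 with siRNA 2, and 0.891, 0.350 and 0.829 FPKM in the same order in 769-P. Both siRNA libraries lay above the control in DU145 and below it in 769-P, where siRNA 2 differed from the control by only -0.05 on the log2 scale. APOBEC3D, another double-domain restriction factor, had 0.621 FPKM in the DU145 control, 1.18 with siRNA 1 and 0.669 with siRNA 2. Among the 769-P libraries only siRNA 2 was above 0, with 0.0645 FPKM. Its log2 differences in DU145 were 0.43 and 0.04, so the siRNAs differed by more than their mean difference from the control of 0.24.

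APOBEC3G, the best known blocker of HIV lacking Vif, had 0.433 FPKM in the DU145 control and 0.183 and 0.187 with the siRNAs. The 769-P control had 0.127 FPKM, siRNA 1 was listed at 0 and siRNA 2 had 0.0900. The siRNA libraries were below the control in both lines. APOBEC3H, a single-domain member, was above 0 in 2 libraries only, with 0.366 FPKM in the DU145 control and 0.174 in 769-P siRNA 2. These are the libraries in which most olfactory receptor genes had a value, with means of 0.347 and 0.228 FPKM. In the DU145 control 61.5% of olfactory receptor genes were below APOBEC3G and 55.6% were below APOBEC3H. The mean log2 difference of APOBEC3G in DU145, -0.27, became 0.12 when the olfactory receptor mean was subtracted from each library. The part of the low signal in the values of APOBEC3G and APOBEC3H was not tested further. APOBEC3F and APOBEC3D were above the olfactory receptor mean in every DU145 library, and APOBEC3D was below it in 769-P siRNA 2.

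**Figure D3:**
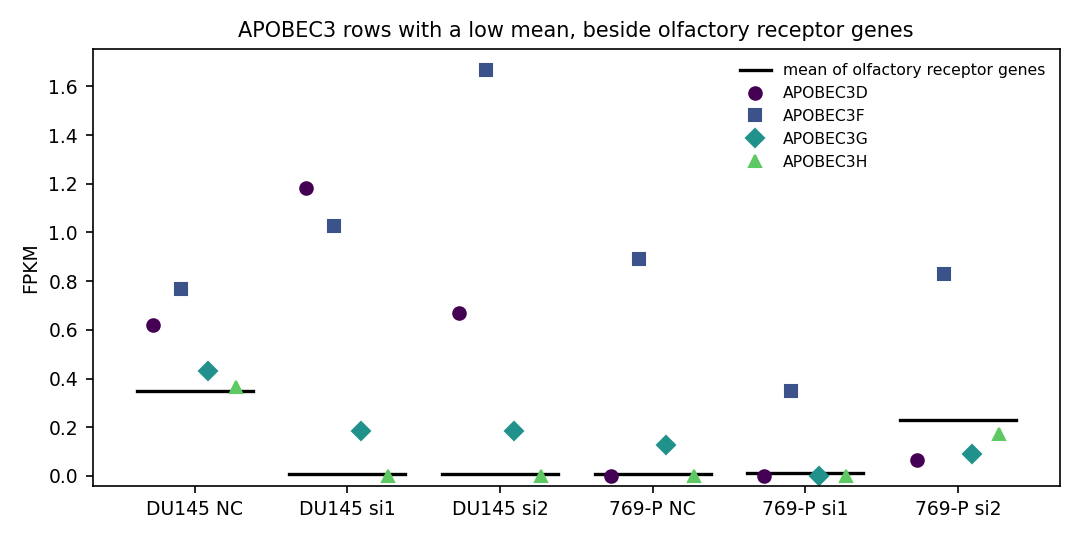
FPKM (y axis) of the 4 members with a mean under 1 FPKM in each library (x axis), with the mean of the olfactory receptor genes of that library as a black line. APOBEC3H lies near the line in the DU145 control (0.366 against 0.347 FPKM) and in 769-P siRNA 2 (0.174 against 0.228 FPKM) and is listed at 0 elsewhere.

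The antisense gene APOBEC3B-AS1 had 0.389 FPKM in the 769-P control, was listed at 0 with siRNA 1 and had 0.547 with siRNA 2. In DU145 it was listed at 0 in the control and with siRNA 2 and had 0.550 FPKM with siRNA 1. The siRNAs of a line disagreed in direction or in being above 0, so it did not follow the joined row. Over all 6 members the median of the mean log2 differences was -0.02 in DU145 and -0.03 in 769-P, against 0.09 and -0.03 over all genes tested. The sets are unlike, since members under 1 FPKM are included and other genes under 1 FPKM are not. Over the 2 members past 1 FPKM the medians were -0.11 in DU145 and -0.21 in 769-P. The 2 leading rows lay on opposite sides of the medians over all members and over all genes tested.

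**Figure D4:**
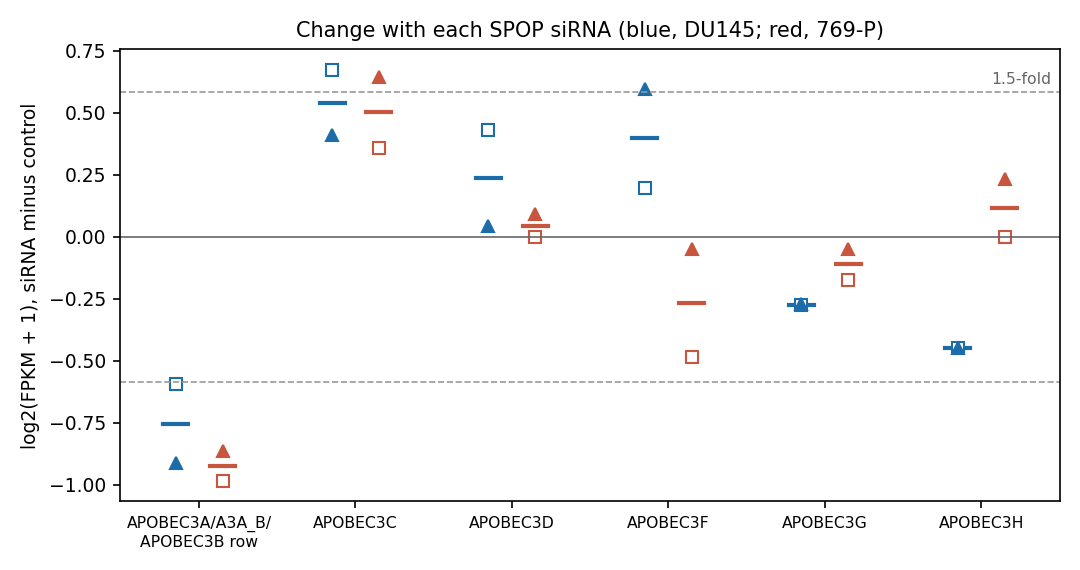
Difference from the control of the line on the log2(FPKM + 1) scale (y axis) for each member, with siRNA 1 as open squares, siRNA 2 as filled triangles and the mean as a bar, in DU145 (blue) and 769-P (red). Dashed lines mark 1.5-fold, which only the joined row passes with both siRNAs of a line (-0.59 and -0.91 in DU145, -0.98 and -0.86 in 769-P).

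The lines also differed in which member led. FPKM is per length, so levels of different rows can be set side by side. The joined row, however, is a value for APOBEC3A, APOBEC3A_B and APOBEC3B together, set here against rows of single genes. In the DU145 control APOBEC3C came first with 15.7 FPKM and the joined row second with 13.6, which were closer than the SD of 3.15 between the siRNA libraries for APOBEC3C. APOBEC3F, APOBEC3D, APOBEC3G and APOBEC3H followed. In the 769-P control the joined row came first with 33.0 FPKM, followed by APOBEC3C with 7.61 and APOBEC3F with 0.891. Next came APOBEC3G with 0.127, and APOBEC3D and APOBEC3H were listed at 0. With the siRNAs in 769-P the joined row (16.9 ± 1.05, n = 2) was still above APOBEC3C (11.2 ± 1.72, n = 2), and in DU145 APOBEC3C (23.4 ± 3.15, n = 2) was above the joined row (7.74 ± 1.36, n = 2). With the siRNAs in DU145, APOBEC3F (1.35 ± 0.455, n = 2) and APOBEC3D (0.927 ± 0.365, n = 2) differed by less than the larger of their SDs. The same held for each pair among APOBEC3G, APOBEC3D and APOBEC3H with the siRNAs in 769-P, which all had means under 0.1 FPKM.

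For 4 of the 6 members the 3 libraries of a line did not overlap those of the other. The joined row was higher in 769-P (16.2 to 33.0 FPKM) than in DU145 (6.78 to 13.6 FPKM), with a control ratio of 2.42. Every 769-P library was above every DU145 library for 21.2% of all genes tested. APOBEC3C was higher in DU145 (15.7 to 25.6 FPKM) than in 769-P (7.61 to 12.5 FPKM), with a control ratio of 2.06. APOBEC3D (0.621 to 1.18 against at most 0.0645 FPKM) and APOBEC3G (0.183 to 0.433 against at most 0.127 FPKM) were also higher in DU145. Every DU145 library was above every 769-P library for 35.1% of all genes tested. Such separation is common between these lines, and that of APOBEC3G was lost when the olfactory receptor mean was subtracted. APOBEC3F and APOBEC3H overlapped between the lines. The shares over all genes tested leave out genes averaging under 1 FPKM, APOBEC3D and APOBEC3G among them.

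The genes whose pattern was most like that of the 2 leading rows were found by Pearson's r of log2(FPKM + 1) over the 6 libraries, as a description. For the joined row these were SLC25A14, a mitochondrial carrier (r = 0.990), FAM122B (0.988) and LRRC40 (0.987). FAM122B, for example, had 5.67, 3.67 and 3.68 FPKM in the control, siRNA 1 and siRNA 2 libraries of DU145 and 12.0, 6.63 and 7.75 in those of 769-P. For APOBEC3C they were MOGS, the glucosidase that starts the trimming of N-glycans (0.997), MAP2K5, a kinase of the ERK5 cascade (0.994), and LINC00999 (0.994). MOGS had 43.0, 73.9 and 59.1 FPKM in DU145 and 21.3, 29.3 and 37.8 in 769-P. With only 6 points that share 2 controls, high values are frequent, and 76 genes had r above 0.95 with the joined row and 277 with APOBEC3C.

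The genes that act around the APOBEC3 enzymes were taken from 9 lists. Of their members, 71 averaged 1 FPKM or more and were tested in the limma fit across all 11865 genes. In that fit 0.135% of genes passed an adjusted p of 0.05 in DU145 and 0.101% in 769-P, and 0.169% passed for a difference between the lines. None of the 71 passed in limma for any of these contrasts, with lowest adjusted p-values of 0.719, 0.0655 and 0.182. At an unadjusted p under 0.05 in limma there were 10 in 769-P, 5 in DU145 and 5 for the difference. The share of all genes at that unadjusted level was not taken, so these counts cannot be read as particular to the lists. SPOP, the target, did not pass either (limma adjusted p = 0.134 in DU145 and 0.0948 in 769-P), so missing this threshold does not show that a gene stayed the same. By the 1.5-fold criterion 6 of the 71 were called lower in DU145 and 11 in 769-P, beside the 1.19% and 3.73% of all genes, and 0 were called higher in either line.

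Transcription factors came first. Of 5 NF-kB subunits, NFKB2 and RELB, the pair of the noncanonical pathway, were called lower in DU145 and 0 in 769-P, with list medians of -0.17 and -0.07 on the log2 scale. NFKB2 had 102 FPKM in the DU145 control, 39.2 with siRNA 1 and 64.6 with siRNA 2, and 66.2, 39.2 and 60.3 in 769-P. RELB had 28.6, 15.3 and 18.1 FPKM in DU145, and in 769-P its control of 23.9 lay between siRNA 1 (20.6) and siRNA 2 (29.0). Of 7 interferon factors (medians 0.07 in DU145 and -0.38 in 769-P), IRF1 was called lower in both lines, with 12.4, 7.11 and 6.67 FPKM in DU145 and 15.8, 6.85 and 6.33 in 769-P. IRF7 and IRF9, the latter a subunit of the factor that binds the interferon-stimulated response element, were called lower in 769-P, from 15.1 and 16.7 FPKM in the control to 5.41 ± 0.873 and 6.21 ± 1.62 (SD, n = 2). In DU145 they were not called, with 9.78, 6.51 and 5.92 FPKM for IRF7 and 8.82, 8.48 and 5.34 for IRF9. None of 4 TEAD factors (medians 0.24 and 0.35) or 11 DREAM and B-MYB genes (0.10 and -0.17) was called in either line. TEAD4 (24.1 FPKM in the 769-P control, 35.2 and 21.5 with the siRNAs) and MYBL2 (96.0, 105 and 102 FPKM) were the most abundant of these lists. The part of these factors in the APOBEC3 values was not tested.

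Of the 13 other restriction factors tested, which block viruses at other steps, 7 were called lower in 769-P and 2 in DU145. Over all genes tested 3.73% were called lower in 769-P and 1.19% in DU145, so more calls in 769-P were seen for genes in general too. ISG15, a ubiquitin-like interferon-induced protein, was called in both lines, with 117, 54.0 and 62.7 FPKM in DU145 and 78.6, 14.3 and 19.3 in 769-P. SAMHD1, which depletes deoxynucleotides, was at 32.7 FPKM in the control of 769-P and at 7.41 ± 1.22 (SD, n = 2) with the siRNAs, and had 10.8, 7.65 and 8.30 FPKM in DU145. BST2, which tethers budding virions, was at 17.0 FPKM in the control of 769-P, 0.231 with siRNA 1 and 0.522 with siRNA 2, the lowest adjusted p of the lists in limma (0.0655). In DU145 it had 0.625, 1.06 and 0.359 FPKM, with the control between the siRNAs. IFITM1, a membrane protein that blocks viral entry, had 9.08, 0.705 and 0.532 FPKM in the same libraries of 769-P. In DU145 it lay the other way, with 0.633 FPKM in the control and 1.07 and 3.27 with the siRNAs. In the 769-P libraries in which these interferon-induced genes were lower, APOBEC3C was higher and the joined row lower.

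**Figure D5:**
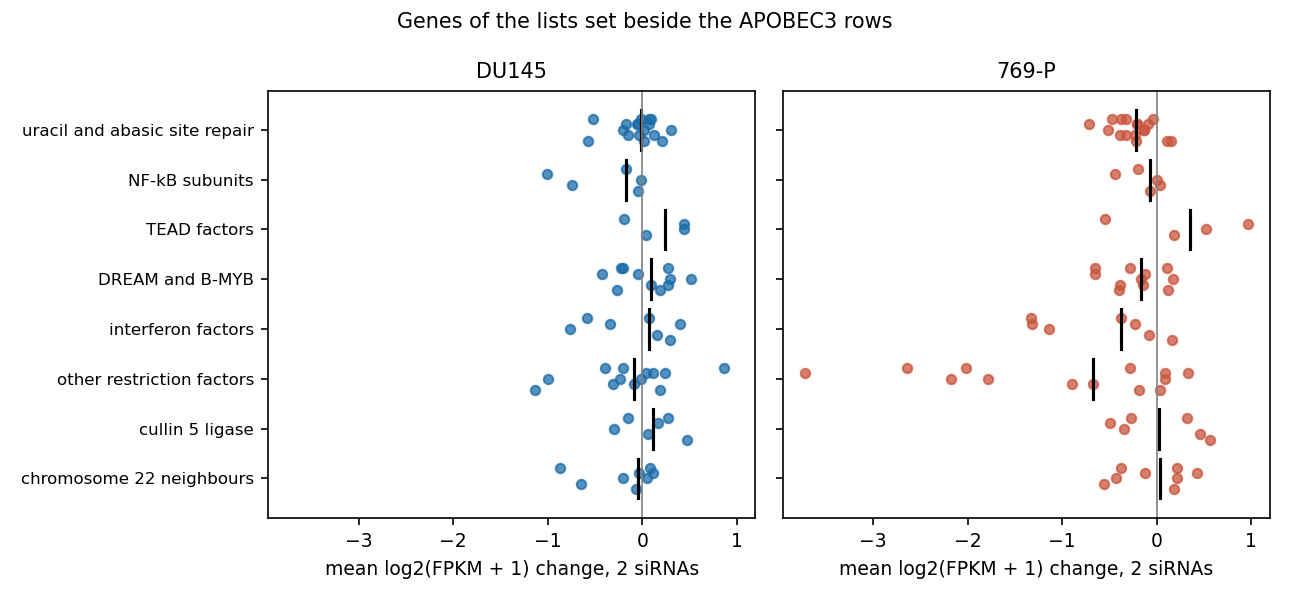
Mean difference of the 2 siRNA libraries from the control on the log2(FPKM + 1) scale (x axis) for each tested gene of 8 lists (y axis) in DU145 (left) and 769-P (right), with the median of each list as a black line. The other restriction factors reach the lowest values in 769-P, where their median is -0.67, against -0.09 in DU145.

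The next list held the enzymes that process the uracil left by APOBEC3 deaminases. Of 17 genes of uracil and abasic site repair 0 were called in DU145 and 1 in 769-P, POLB, the gap-filling polymerase of base excision repair, with 4.53 FPKM in the control and 2.54 and 2.17 with the siRNAs. Over all genes tested, 1.19% were called lower and 4.72% higher in DU145, and 3.73% lower and 3.6% higher in 769-P. The medians of this list were -0.02 in DU145 and -0.22 in 769-P. APEX1, the abasic site endonuclease and the most abundant of them, had 105, 122 and 121 FPKM in DU145 and 65.4, 71.4 and 70.1 in 769-P. None of 6 subunits of the cullin 5 ligase that HIV Vif directs to APOBEC3 proteins was called (medians 0.11 and 0.02), ELOB being the most abundant (282, 335 and 258 FPKM in DU145).

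The relatives of the family outside the cluster were low, and 0 of 4 averaged 1 FPKM. Among the neighbours of the cluster on chromosome 22, CBX6, a Polycomb protein gene 80491 bp from APOBEC3A, was called lower in DU145 (25.8, 15.4 and 16.8 FPKM). The 769-P control had 16.8 FPKM, against 9.41 and 13.0 with the siRNAs, the second of which did not pass 1.5-fold. The other 7 of 8 neighbours were not called in either line (medians of the 8, -0.05 and 0.03), among them RPL3, the most abundant of the list, with 859, 682 and 1035 FPKM in DU145.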

How the data were processed

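RNA-Seq was carried out on polyadenylated RNA from 6 libraries. The authors trimmed the reads, mapped them to hg19 with TopHat2 with at most 2 mismatches and deposited FPKM values named after Cufflinks, 1 per gene and library. Annotation and versions are not given in the sources used here. The paper's methods speak of biological replicates, whereas the labels list 1 library per siRNA or control. Rows with the same symbol were summed (26006 rows, 24551 genes). Since FPKM is not a count, tests were run on a log scale, and the precision of each value is unknown. Groups came from the sample titles.

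Differences were taken on log2(FPKM + 1), for genes averaging 1 FPKM or more. The lists were tested with limma 3.58.1 in R 4.3.3 on 4 groups (eBayes with trend, Benjamini-Hochberg over all genes), with 2 siRNA libraries per line for the spread. The code of the fit was run on simulated data with large added changes and a fixed spread not estimated from these libraries. That run checks the code and does not show how well the fit detects changes here. Python 3.11.15, pandas 2.3.3 and numpy 2.4.6 were used. Positions and transcripts came from GENCODE on GRCh37 and the promoter from RefSeq.

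Named genes are the members, SPOP, the most abundant gene of each list with up to 4 of its genes past 1.5-fold with both siRNAs, list genes past the limma threshold, and the 3 genes most correlated with each of the 2 leading rows. Markers were named as checks. The results for some list genes and markers are not reported here. The members and lists were chosen with earlier results of these data known. Alternatives were another pseudocount, centring, background subtraction, quantile normalization, each siRNA alone, other filters, no trend and the replicate block.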

Additional observations from a re-analysis of the deposited data

Results flagged for a closer look

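APOBEC3F was noted because its siRNA libraries lay on opposite sides of the control in the 2 lines, above it with 2 of 2 siRNAs in DU145 (0.20 and 0.60 on the log2 scale) and below it with 2 of 2 in 769-P (-0.49 and -0.05). The mean differences were 0.40 in DU145 and -0.27 in 769-P, and DU145 minus 769-P was 0.66. This difference was not tested, since the row did not pass a mean of 1 FPKM. APOBEC3F shares 5.96% of its windows of 100 bases letter for letter with other members, and 12.8% within 2 mismatches.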

How the results depend on the processing

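The joined row stayed below the control and APOBEC3C above it in both lines under all 6 alternatives tried for the values of a member, with ranges of -0.91 to -0.59 (DU145) and -0.98 to -0.86 (769-P) for the joined row and of 0.41 to 0.67 and 0.36 to 0.65 for APOBEC3C. The number of members called in DU145 went from 1 to 3 with a pseudocount of 0.1 FPKM (APOBEC3G and APOBEC3H added, both lower), to 0 with the olfactory receptor mean subtracted and to 0 at 2-fold. In 769-P it went from 1 to 0 at 2-fold. With a single siRNA it was 2 to 2 in DU145 and 1 to 2 in 769-P, with APOBEC3C or APOBEC3F added as higher. The median over the members, -0.02 in DU145, was -0.18 with a pseudocount of 0.1, -0.12 when centred, 0.34 with the background subtracted, 0.064 with quantile normalization, -0.11 over the 2 members past 1 FPKM and -0.12 to -0.039 with a single siRNA. In 769-P the median of -0.03 was -0.13 with a pseudocount of 0.1, -0.13 with quantile normalization, -0.21 over the 2 members past 1 FPKM and -0.09 to 0.02 with a single siRNA. Restricting to members past 1 FPKM left 2 without overlap between the lines in place of 4. The number of list genes passing limma was 0 in every alternative except without the filter on low values, where 1 gene, RSAD2, passed for the difference between lines and within each line. RSAD2 was listed at 0 in all 4 siRNA libraries, so its spread between siRNAs was 0. Over all genes the passes in DU145, 769-P and the difference, 16, 12 and 20, became 1186, 148 and 1202 without the filter and 4, 10 and 3 with a minimum of 5 FPKM. They were 16, 12 and 0 with a pseudocount of 0.1 and 17, 13 and 10 with quantile normalization. With 1 siRNA library left out they were 0 to 32, 0 to 8 and 0 to 36, being 0 in all 3 without either 769-P library. Taking the siRNA number as replicate block, 0 list genes passed, and 18, 13 and 8 of all genes. The siRNA 2 minus siRNA 1 differences of the lines correlated at 0.27 across genes, but the samples share only a siRNA number. Depth limits the 4 low members, since absolute depth is unknown. The cause of these shifts was not tested.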
